A study of Mus musculus with 6 samples.

Results

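The 10 genes described here encode parts of 3 peptide systems that set vascular tone and permeability: Adm, Calcrl, Ramp1, Ramp2 and Ramp3 for adrenomedullin, Edn1, Ednra and Ednrb for endothelin, and Ace and Agtr1a for angiotensin. They were chosen by gene symbol, and all 10 were found among the 23183 genes in the tables, with a value in each of the 6 libraries. The libraries hold RNA of whole lung from mice on a C57BL/6 background, 3 given saline and 3 given LPS (lipopolysaccharide, from the outer membrane of Gram-negative bacteria) by instillation into the trachea. All 6 titles name wild-type mice, but the genotype field reads wild type only for saline 1, 2 and 3, LCN2-/- for LPS 1 and LPS 2, and LCN4-/- for LPS 3. Lcn2 RNA was at 13.60, 13.29 and 13.82 in LPS 1, 2 and 3 and at 8.20, 11.28 and 10.11 in saline 1, 2 and 3, which goes against the knockout label of LPS 1 and LPS 2. If that field were right, genotype and treatment could not be told apart, so LPS here means the libraries labelled LPS. Age, sex, dose and time after instillation are not given in the labels used here, nor whether each library is a separate animal, so that the p-values measure the spread between these libraries, which may be technical.

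Adrenomedullin is a secreted peptide that widens vessels and tightens the endothelial barrier. Its receptor is the G protein-coupled protein CALCRL, which reaches the cell surface only with a receptor activity-modifying protein (RAMP) as partner: RAMP1 gives a receptor for calcitonin gene-related peptide (CGRP), RAMP2 and RAMP3 give adrenomedullin receptors. Endothelin-1, the product of Edn1, constricts vessels through the ETA receptor (Ednra) of smooth muscle, while the ETB receptor (Ednrb) of lung endothelium clears the peptide from blood. Angiotensin-converting enzyme (Ace), abundant on lung capillary endothelium, makes angiotensin II and degrades bradykinin, and Agtr1a encodes the main type 1 angiotensin II receptor of the mouse.

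Because the genes below were read out at the RNA level, the stretches next to their start sites are shown for the ligands that were higher in LPS (Adm, Edn1) and for the receptors with the largest decreases (Calcrl, Ednrb). Each is the 250 bases before the RefSeq start of the gene (build GRCm38.p6), 5′ to 3′ on the gene's own strand, with matches to the searched motifs in capitals. Adm lies at chr7:110627407-110627656 (plus strand), Edn1 at chr13:42301226-42301475 (plus strand), Calcrl at chr2:84425267-84425516 (minus strand) and Ednrb at chr14:103843702-103843951 (minus strand).
Adm: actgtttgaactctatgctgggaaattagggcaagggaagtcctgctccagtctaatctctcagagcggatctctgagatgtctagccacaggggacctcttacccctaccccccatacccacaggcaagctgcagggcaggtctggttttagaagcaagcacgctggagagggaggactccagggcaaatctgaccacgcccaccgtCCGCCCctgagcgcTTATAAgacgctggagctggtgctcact
Edn1: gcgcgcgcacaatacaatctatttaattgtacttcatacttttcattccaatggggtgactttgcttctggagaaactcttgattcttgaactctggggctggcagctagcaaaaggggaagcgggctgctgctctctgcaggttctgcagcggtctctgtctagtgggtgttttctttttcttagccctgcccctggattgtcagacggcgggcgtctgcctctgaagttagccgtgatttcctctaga
Calcrl: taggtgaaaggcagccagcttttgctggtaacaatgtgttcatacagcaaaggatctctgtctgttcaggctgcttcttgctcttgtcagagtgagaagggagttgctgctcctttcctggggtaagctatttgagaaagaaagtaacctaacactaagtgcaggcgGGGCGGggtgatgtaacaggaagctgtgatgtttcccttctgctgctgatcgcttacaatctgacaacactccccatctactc
Ednrb: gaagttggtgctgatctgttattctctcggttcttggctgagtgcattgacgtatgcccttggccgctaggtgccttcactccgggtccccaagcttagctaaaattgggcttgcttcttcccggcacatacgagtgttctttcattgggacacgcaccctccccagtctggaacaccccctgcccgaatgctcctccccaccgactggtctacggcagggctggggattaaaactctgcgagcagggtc

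The motifs searched, on both strands, were the core of the promoter element bound by TBP (TATAA), the GC box bound by SP1 (GGGCGG), the hypoxia response core (ACGTG), the AP-1 motif (TGANTCA), the STAT motif (TTCNNNGAA) and the NF-kB consensus. The TBP element reads on both strands of Adm within 1 run of capitals, and GC boxes may overlap one another. The Adm stretch held the TBP element, read on its own strand, at 27 to 23 bases before the start, and a GC box on the opposite strand at 42 to 37 bases. The Calcrl stretch held a GC box at 83 to 78 bases, and the Edn1 and Ednrb stretches held none of the 6 motifs. Over all 32851 RefSeq stretches of this length, the TBP element was present in 22.8%, the GC box in 32.7%, the hypoxia core in 16.6%, AP-1 in 6.75%, STAT in 7.02% and the NF-kB consensus in 3.90%. Sequences were matched for 8 of the 10 genes, Ace with 2 starts. Ramp2 and Agtr1a had no entry. A match describes letters in this window and is not a binding site, and the RefSeq starts of Calcrl and Ednrb lie inside the gene bounds that GENCODE gives.

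Of the 10 genes, 2 rose in LPS (Adm and Edn1), 5 fell (Calcrl, Ednra, Ednrb, Ace and Agtr1a) and 3 did not pass the test (Ramp1, Ramp2 and Ramp3). The test was limma on the deposited log2(value + 1) values over all 13116 genes that reached a value of 1 before the log in at least 3 libraries, with Benjamini-Hochberg adjusted p-values and a threshold of 0.05. Over those genes 50.1% were called, 25.7% higher and 24.3% lower, so calls were common. Counts of calls in the marker and pathway lists below stand against these shares. The median difference of the 10 genes, LPS minus saline, was -0.55, against 0.02 over all genes tested. In 8 of the 10 genes the LPS and saline values did not overlap, 2 higher and 6 lower; over the 10295 tested genes with 6 values, 62.3% did not overlap, 32.3% higher and 29.9% lower. When libraries were scaled to equal sums, the median of all genes moved to -0.68, and directions given here are relative to the scaling as deposited.

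**Figure D1:**
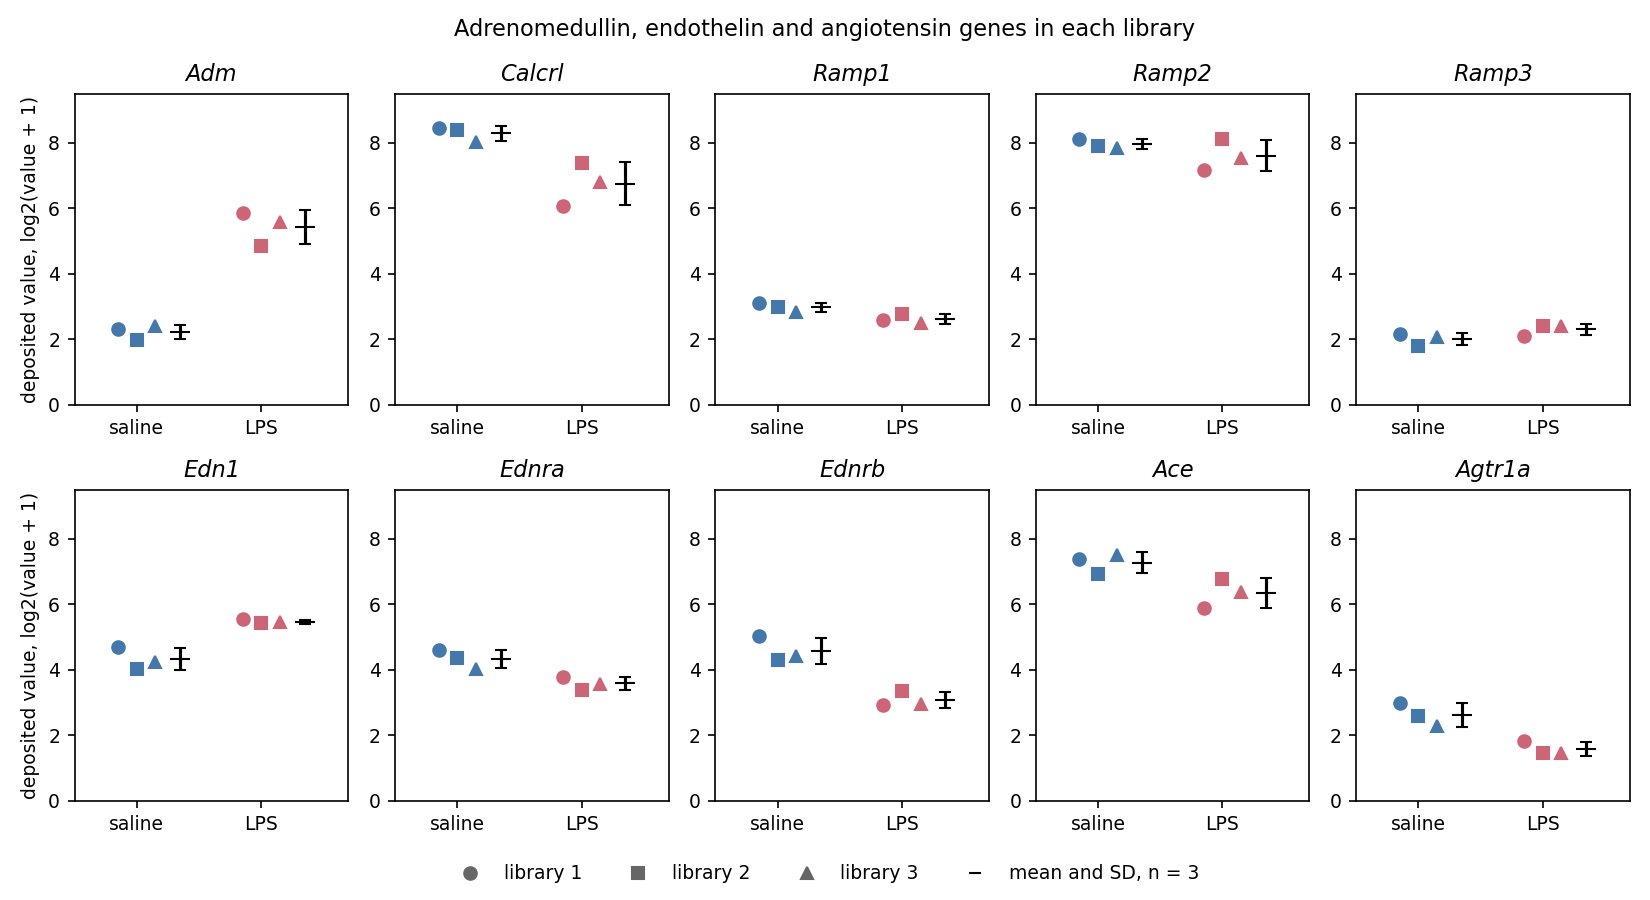
Deposited values, log2(value + 1), of the 10 genes in each of the 6 libraries, with circles, squares and triangles for libraries 1, 2 and 3 and bars for the mean and SD of each group (n = 3). Adm stands at 1.97 to 2.40 in saline and 4.86 to 5.86 in LPS, while Ramp2 and Ramp3 overlap between the groups.

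The adrenomedullin gene had the largest change of the 10. Adm (chromosome 7, 110627661 to 110629820, GENCODE vM21 on GRCm38) had log2 values of 2.30, 1.97 and 2.40 in saline and 5.86, 4.86 and 5.58 in LPS. Every LPS library was more than 2 log2 units above every saline library. The mean was 2.22 ± 0.22 (SD, n = 3) in saline and 5.43 ± 0.52 (SD, n = 3) in LPS, a difference of 3.21 (SE 0.25; limma adjusted p = 7.06e-05), or 9.25-fold on the log2(value + 1) scale. That scale understates the change of low values: before the log, the means were 3.70 ± 0.70 and 44.0 ± 14.8 (SD, n = 3), a ratio of 11.9. The difference in Adm was at the 99.4th percentile of all genes tested and ranged from 2.50 (equal sums) to 3.50 over 16 alternatives, past the threshold in each.

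The shared receptor gene moved the other way. Calcrl (chromosome 2, 84330626 to 84425411) had log2 values of 8.46, 8.38 and 8.01 in saline and 6.07, 7.36 and 6.81 in LPS, with no overlap. It was among the more abundant genes in saline, at the 98.4th percentile of the genes tested. Its mean fell by 1.54 (SE 0.30; limma adjusted p = 0.00306), from 8.28 ± 0.24 to 6.75 ± 0.65 (SD, n = 3), or 2.90-fold. LPS 1 was lowest and LPS 2 highest, and with equal sums the difference was -2.34, over 1.5 times the size as deposited. In bulk tissue, fewer cells of a type and less RNA per cell cannot be told apart, for Calcrl and for each gene below.

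The 3 RAMP genes differed far more in level than between treatments. Ramp2 (chromosome 11, 101246028 to 101259546), the partner for adrenomedullin in endothelium, had log2 values of 8.12, 7.89 and 7.84 in saline and 7.17, 8.10 and 7.54 in LPS. The groups overlapped, since LPS 2 lay above saline 2 and 3, and the difference was -0.35 (95% interval -0.89 to 0.20; limma adjusted p = 0.259). This value changed with the scaling: it was -1.01 with quantile normalization and -1.15 with equal sums, both past the threshold, and with a single library dropped it ran from -0.60 (LPS 2 left out) to -0.13 (LPS 1 left out). Ramp2 shares its strand and part of its span with Vps25, which was 5.92 to 6.27 in saline and 6.33 and 6.48 in LPS 1 and 2, and how reads in the shared stretch were counted was not stated.

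Ramp1 (chromosome 1, 91179822 to 91225196), the CGRP partner, had 3.10, 2.98 and 2.83 in saline and 2.59, 2.77 and 2.49 in LPS. These values did not overlap, but the difference of -0.35 (95% interval -0.68 to -0.03; limma adjusted p = 0.0677) missed the adjusted threshold; with equal sums it was -1.04 and passed. Ramp3 (chromosome 11, 6658521 to 6677475), whose RAMP also sends the receptor back to the cell surface after uptake, had 2.15, 1.80 and 2.06 in saline and 2.09, 2.41 and 2.39 in LPS. LPS 1 lay below saline 1, and the difference of 0.29 (95% interval -0.07 to 0.65; limma adjusted p = 0.155) passed with quantile normalization (0.54) and turned to -0.34 with equal sums.

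Of the summed RAMP values before the log, Ramp2 made up 96.1% ± 0.06 (SD, n = 3) in saline and 95.5% ± 0.95 in LPS, Ramp1 2.68% ± 0.12 and 2.59% ± 0.66, and Ramp3 1.18% ± 0.17 and 1.95% ± 0.38. The Ramp3 share was 1.01 to 1.34% in saline and 1.52 to 2.19% in LPS, without overlap. No source used here says whether the value before the log is divided by transcript length. Low values of genes with 1 transcript gathered more tightly after multiplying by its length (10 to 16 genes in the fullest bin of each library) than before (6 to 9), as values per length would, so these shares and all levels set between genes rest on that reading.

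Both endothelin receptor genes fell while the ligand gene rose. Edn1 (chromosome 13, 42301476 to 42307990) had log2 values of 4.68, 4.01 and 4.25 in saline and 5.53, 5.41 and 5.46 in LPS. The LPS libraries lay close together, with an SD of 0.06, and all were above saline. The mean rose from 4.32 ± 0.34 to 5.47 ± 0.06 (SD, n = 3), a difference of 1.15 (SE 0.18; limma adjusted p = 0.00116) or 2.22-fold. With equal sums the difference was 0.38 and the call ended (limma adjusted p = 0.134; 0.000465 to 0.134 over the 16 alternatives).

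Ednrb (chromosome 14, 103814625 to 103844402), for the clearing ETB receptor, had 5.04, 4.31 and 4.40 in saline and 2.91, 3.34 and 2.96 in LPS. Every LPS library was below every saline library, and the mean fell by 1.51 (SE 0.22; limma adjusted p = 0.000662), from 4.58 ± 0.40 to 3.07 ± 0.24 (SD, n = 3), or 2.86-fold. Ednra (chromosome 8, 77663031 to 77724464), for the constricting ETA receptor, had 4.59, 4.34 and 4.03 in saline and 3.79, 3.38 and 3.58 in LPS, again without overlap. Its mean fell by 0.74 (SE 0.18; limma adjusted p = 0.00858), from 4.32 ± 0.28 to 3.58 ± 0.20 (SD, n = 3), or 1.67-fold. With saline 1 and 3 against LPS 1 and 2 the Ednra difference was -0.73 and its adjusted p = 0.0529 by limma (0.000193 to 0.0529 over 16 alternatives). With equal sums Ednra was at -1.49 and Ednrb at -2.26, lower still.

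Of the summed values of both endothelin receptors, Ednrb made up 58.0, 49.4 and 56.7% in saline and 33.7, 49.3 and 38.2% in LPS. Saline 2 and LPS 2 were thus nearly level, at 49.4 and 49.3%, and the separation of the groups in this share rested on the other 4 libraries.

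Ace and Agtr1a, the converting enzyme and the receptor of angiotensin II, both fell. Ace (chromosome 11, 105967945 to 105989964) had log2 values of 7.38, 6.92 and 7.51 in saline and 5.87, 6.76 and 6.38 in LPS. Saline 2 and LPS 2 were close, with the groups still apart. The mean fell by 0.93 (SE 0.25; limma adjusted p = 0.0134), from 7.27 ± 0.31 to 6.34 ± 0.45 (SD, n = 3), or 1.91-fold. Without saline 3 the difference was -0.81 and the call ended (limma adjusted p = 0.0526; 0.000476 to 0.0526 over 16 alternatives), and with quantile normalization and equal sums it was -1.51 and -1.73.

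Agtr1a (chromosome 13, 30336441 to 30382867) was low in all libraries, with 2.996, 2.58 and 2.27 in saline and 1.83, 1.45 and 1.46 in LPS. Its groups did not overlap, and the mean fell by 1.03 (SE 0.20; limma adjusted p = 0.00314), from 2.61 ± 0.37 to 1.58 ± 0.22 (SD, n = 3), or 2.05-fold on the log2(value + 1) scale. Before the log the means were 5.25 ± 1.60 and 2.01 ± 0.47, a 2.61-fold decrease, and with equal sums the difference was -1.64. Agtr1b, a close paralog that could share reads with it, was at 0.11 to 0.22 in saline and 0.00 to 0.12 in LPS, so the split between the pair is uncertain but little signal was assigned to Agtr1b.

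**Figure D2:**
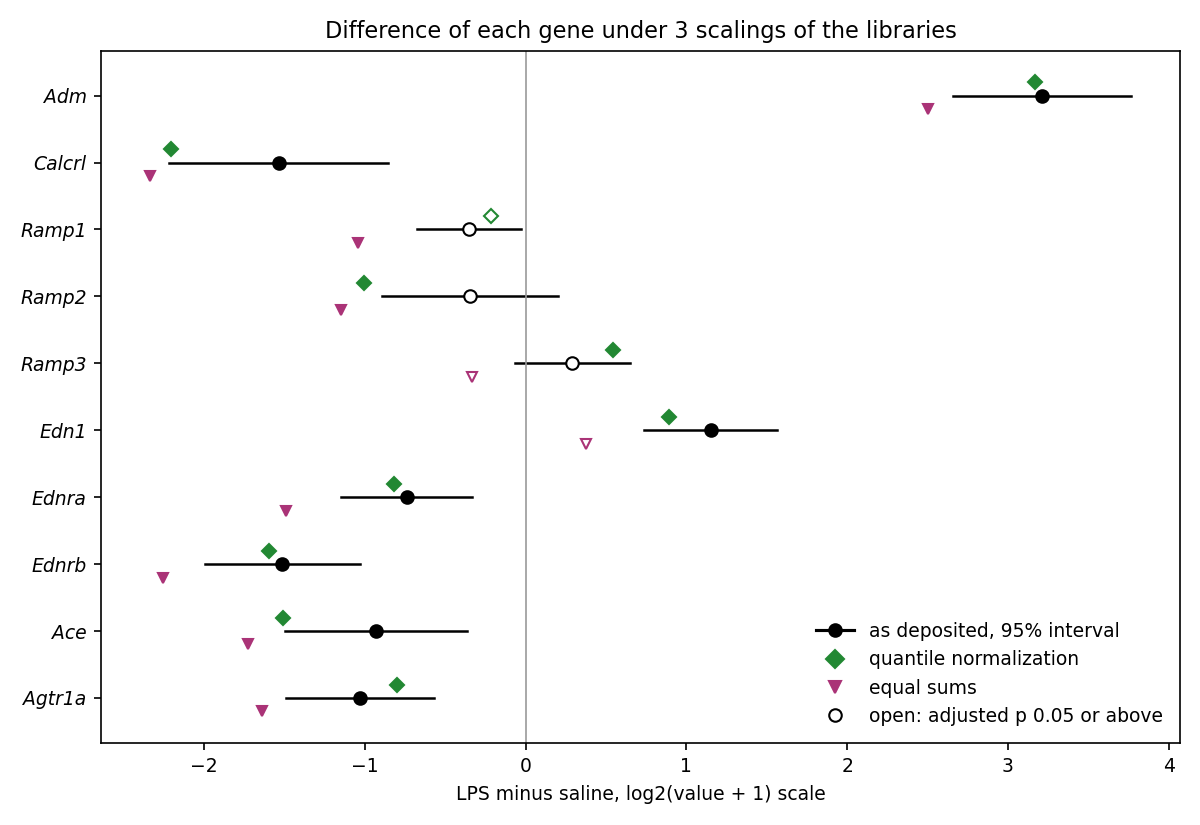
LPS minus saline on the log2(value + 1) scale for each gene as deposited (circles, with 95% intervals from limma), with quantile normalization (diamonds) and with equal library sums (triangles); filled symbols have a limma adjusted p under 0.05. Adm, Calcrl, Ednra, Ednrb, Ace and Agtr1a stay on their side of 0 and filled under all 3 scalings, Edn1 is open at 0.38 with equal sums, and Ramp3 crosses 0.

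In saline the order of mean levels was Calcrl, Ramp2, Ace, Ednrb, Ednra, Edn1, Ramp1, Agtr1a, Adm and Ramp3. The ranges of Calcrl and Ramp2 overlapped, as did those of Ednrb, Ednra and Edn1, and those of each neighbouring pair from Ramp1 to Ramp3. In LPS the order was Ramp2, Calcrl, Ace, Edn1, Adm, Ednra, Ednrb, Ramp1, Ramp3 and Agtr1a. Adm moved from place 9 to place 5, where its range overlapped that of Edn1, and Ednrb moved from place 4 to place 7. In LPS, Ramp2 overlapped Calcrl and Calcrl overlapped Ace, while each gene from Adm downward was apart from the next.

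The members of a pair were also compared within each library, which nearly removes a scaling by a common factor for each library. The differences were not recomputed with equal sums or with quantile normalization, which can shift genes of unlike level by unlike amounts. With quantile normalization, Ramp2 was at -1.01 and Ramp1 at -0.22, and Ace at -1.51 and Agtr1a at -0.80. Pairs of unlike level thus depend on that choice. For 16 such differences, fixed by role, a two-sided exact permutation test over 3 against 3 libraries can reach no p below 0.1, and 10 of the 16 reached that p (adjusted p = 0.16 over the 16). Adm minus Calcrl was -6.15, -6.41 and -5.62 log2 units in saline 1, 2 and 3, and -0.21, -2.51 and -1.23 in LPS 1, 2 and 3. The distance from ligand to receptor thus changed by 4.75 on average, with LPS libraries spread over more than 2 units. Edn1 minus Ednrb went from -0.35, -0.29 and -0.16 in saline to 2.63, 2.07 and 2.50 in LPS. Edn1 minus Ednra went from 0.09, -0.33 and 0.21 to 1.75, 2.03 and 1.88. In all 3 LPS libraries the Edn1 value was above that of both receptors. For these pairs the ligand gene was higher and the receptor gene lower without overlap. Separation of their differences was thus fixed by the single genes and adds no further support.

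Adm minus Edn1 changed by 2.06, from -2.09 ± 0.27 in saline to -0.03 ± 0.46 in LPS (SD, n = 3; exact permutation p = 0.1). Ramp3 minus Ramp2 changed by 0.64 and Ramp3 minus Ramp1 by 0.64, both without overlap. Ramp2 minus Ramp1 was 4.98 ± 0.06 in saline and 4.98 ± 0.38 in LPS, with exact permutation p = 1.0 and no stable direction. Ednrb minus Ednra changed by -0.77, from 0.26 ± 0.26 to -0.51 ± 0.43 (SD, n = 3; exact permutation p = 0.1), with saline 2 at -0.035 and LPS 2 at -0.038 barely apart. Ace minus Agtr1a changed by 0.10 with overlapping groups (exact permutation p = 0.9).

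**Figure D3:**
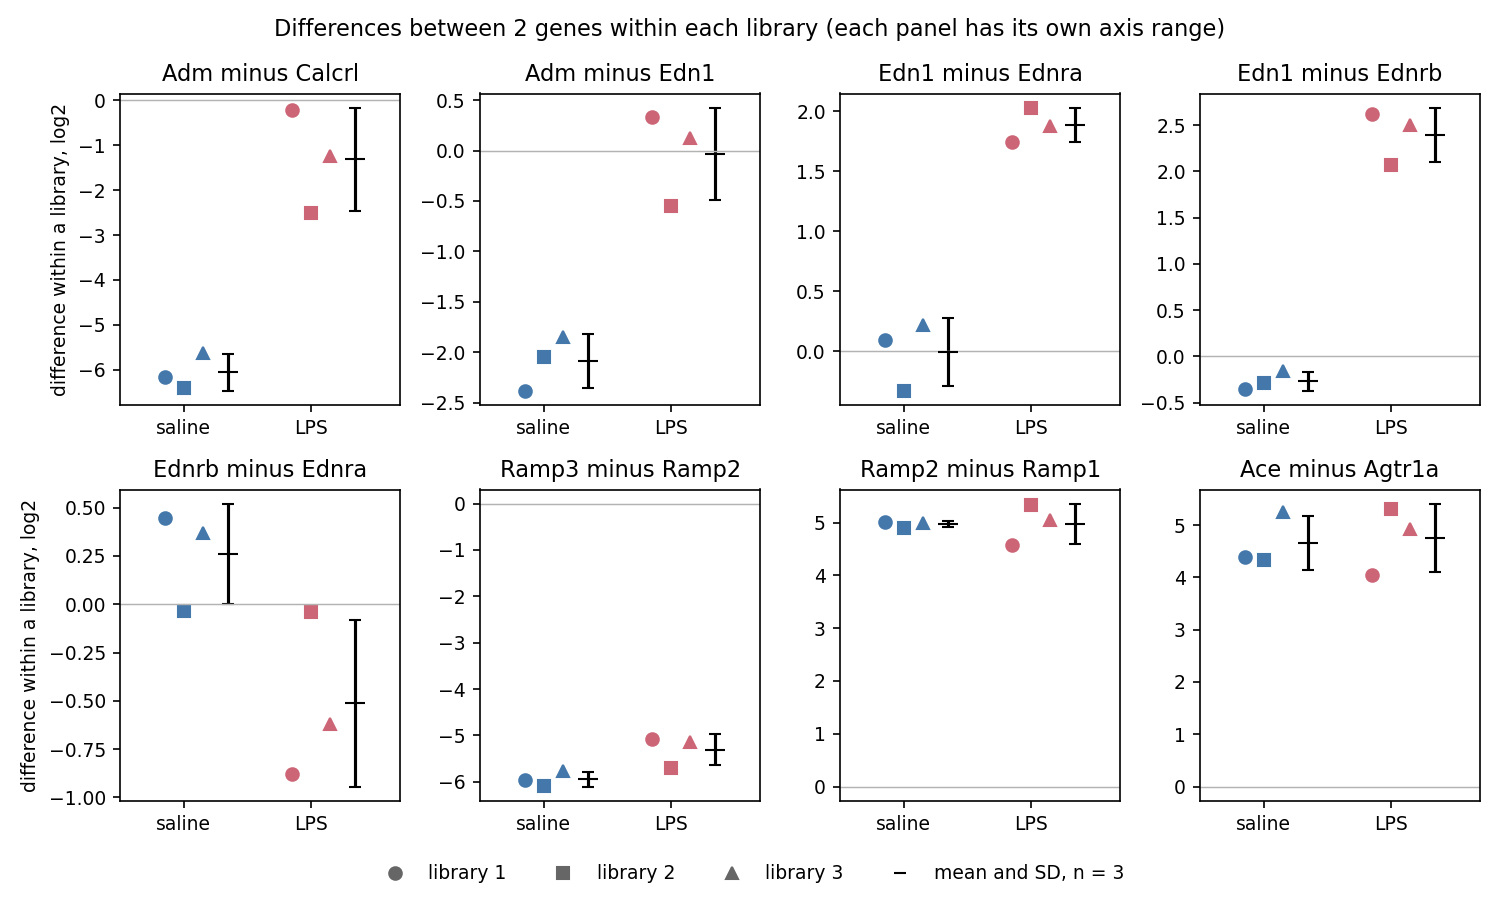
Difference of 2 genes' log2 values within each library, by group, with the mean and SD (n = 3); each panel has its own axis. Adm minus Calcrl, Edn1 minus Ednra and Edn1 minus Ednrb separate the groups by more than 1 log2 unit, whereas Ramp2 minus Ramp1 and Ace minus Agtr1a overlap and Ednrb minus Ednra nearly touches.

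Endothelial markers differed among themselves. Of 12 endothelial markers tested, 4 were lower (Tie1, Tek, Erg and Kdr, named after their values were seen) and 0 higher, with a median difference of -0.52, while 8 did not pass and Esam, Egfl7 and Cldn5 lay above 0. With equal sums 11 were lower (median -1.31), without LPS 1 the median was -0.28 with 3 lower, and among the 9 with 6 values 2 were lower. The summed value of the 9 with 6 values was 1105 to 1197 in saline and 970 to 1192 in LPS. Relative to the mean of the pan-endothelial genes Pecam1 and Cdh5 in the same library, Calcrl went from 0.81 ± 0.24 to -0.35 ± 0.58 and Ednrb from -2.89 ± 0.28 to -4.03 ± 0.24 (SD, n = 3), both without overlap and with exact permutation p = 0.1. On the same measure Ace changed by -0.56 with overlap (exact permutation p = 0.2) and Ramp2 by 0.02 (exact permutation p = 1.0). These differences hold for these 2 genes, which were at -0.24 (Pecam1) and -0.50 (Cdh5) and not called. The 4 endothelial markers called lower were at -0.78 (Erg), -1.02 (Tie1), -1.49 (Tek) and -2.17 (Kdr), against -1.54 for Calcrl and -1.51 for Ednrb. Tie1 and Tek had no value in LPS 3. Of 8 genes fixed as markers of capillary aerocytes, the gas exchange capillary cells, 4 were lower and 1 higher (2 lower without saline 1 or without LPS 2), and their summed value over 7 genes was 284 to 327 in saline and 237 to 262 in LPS.

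Smooth muscle and pericyte markers were lower in part, as Ednra and Agtr1a were. Of 11 such markers tested, 7 were lower and 0 higher (median -0.90; 4 lower without saline 1), and the summed value over 10 of them was 309 to 479 in saline and 151 to 252 in LPS. Relative to the mean of the mural cell genes Pdgfrb and Notch3 in the same library, Ednra changed by 0.53 (0.26 without saline 3 and 0.83 without saline 2) and Agtr1a by 0.24, both with overlapping groups (exact permutation p = 0.3 and 0.6). These 2 reference genes differed, at -0.65 (Pdgfrb) and -1.89 (Notch3), both called lower. Ednra (-0.74) and Agtr1a (-1.03) lay between them, so the sign depends on which reference gene is used. Fibroblast markers were also lower in part, with 7 of 11 lower and 0 higher and a summed value over 10 genes of 1561 to 2353 in saline and 483 to 628 in LPS. Of the other lists, 6 of 7 adipocyte markers were lower and 0 higher, 7 of 11 monocyte and macrophage markers were higher and 2 lower, and 4 of 10 epithelial markers were higher and 1 lower. These balances turned with the scaling: with equal sums 3 monocyte and macrophage markers were higher and 4 lower, and 0 epithelial markers higher and 5 lower. With quantile normalization the counts were 5 and 3, and 1 and 3. Without LPS 2 or without LPS 3, 1 epithelial marker was higher and 1 lower. Some markers called lower were under the filter value in every LPS library and were tested through saline alone, which favours a call of lower. These were Adipoq, Plin1 and Car3 of the adipocyte list, Rgs5 of the pericyte list, Gli1 of the fibroblast list and Siglecf of the macrophage list. Pln of the cardiac list below was another. The part of these cell types in the results for Ednra and Agtr1a was not tested further.

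Cardiac muscle, which can come with a lung piece, was present in unequal amounts: 9 of 9 tested markers were lower in LPS, and the summed value over 7 of them was 1885, 613 and 210 in saline 1, 2 and 3 and 37.4 to 136 in LPS. Saline 1, with the most cardiac signal, also had the highest saline value of Edn1, Ednra, Ednrb, Agtr1a, Calcrl and the RAMP genes. Calcrl, Ednra, Agtr1a, Ramp1 and Ramp2 followed the full cardiac order of saline 1, 2 and 3. Edn1, Ednrb and Ramp3 did not, and Adm and Ace were highest in saline 3. Leaving saline 1 out gave 2 members higher and 5 lower, the same counts as with it, but each of the 5 falls was smaller. Agtr1a was then at -0.84, Ednra at -0.61, Ednrb at -1.29, Ace at -0.88 and Calcrl at -1.45. The rises of Adm (3.25) and Edn1 (1.34) were larger. Saline 2 and 3 still held more cardiac signal than LPS, so cardiac content and treatment cannot be told apart here. Neutrophil markers, of which 8 of 9 rose, summed over 8 genes to 25379, 9786 and 18098 in LPS 1, 2 and 3 and to 653 to 1965 in saline. Within LPS, Adm, Edn1, Ednra and Agtr1a had the same order as that sum (LPS 1, then 3, then 2). Calcrl, Ramp2, Ramp3, Ednrb and Ace had the opposite order, and Ramp1 had neither. Some of these orders rest on small steps: in LPS 2 and LPS 3, Agtr1a was at 1.451 and 1.458 and Edn1 at 5.41 and 5.46. With 3 libraries no test of these orders was made, and the part of neutrophils in these values was not tested.

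The other genes of the adrenomedullin and CGRP pathway went both ways. Among 11 tested, 4 were called higher, 3 lower and 4 neither, with a median of 0.09. With quantile normalization 3 were higher and 5 lower (median -0.38), with equal sums 2 and 6 (-0.71). Without saline 2 there were 4 higher and 5 lower, and without LPS 1 or LPS 2 there were 2 higher and 3 lower. Ackr3, an atypical receptor that takes up adrenomedullin and the chemokine CXCL12, rose by 2.62 (SE 0.21; limma adjusted p = 7.82e-05), from 3.85 to 4.28 in saline to 6.27 to 6.97 in LPS. Calca, which encodes calcitonin and CGRP, rose by 2.09 (SE 0.19; limma adjusted p = 0.000103), from a range of 1.46 to 1.69 to one of 3.24 to 3.95. Mme, the membrane peptidase neprilysin, fell by 1.90, and Pam, the enzyme that adds the terminal amide adrenomedullin needs for activity, by 0.98 (limma adjusted p = 0.0149, and 0.0587 with no filter on low values; the difference was -0.64 without saline 1 and -1.77 with equal sums). The Adm2 gene was listed at 0.00 to 0.22 in saline and 0.36 to 0.80 in LPS and was too low to be tested.

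The remaining endothelin pathway held 12 tested genes, 2 called higher, 4 lower and 6 neither (median -0.32). With quantile normalization 1 was higher and 6 lower, with equal sums 0 and 10, and without LPS 1 there was 1 higher. Edn3, the ligand that prefers the ETB receptor, fell by 1.36 (SE 0.18; limma adjusted p = 0.000458), with 2.73 to 3.13 in saline and 1.27 to 1.76 in LPS, against the rise of Edn1. Ece1, the main endothelin-converting enzyme gene, was at -0.34 (SE 0.22; limma adjusted p = 0.211), a value that passed with quantile normalization (-0.78), with equal sums (-1.13), without saline 2 (-0.58) and with saline 1 and 3 against LPS 1 and 2 (-0.60). Ece2, for a second converting enzyme, rose by 1.02, and this call ended with equal sums (0.33). Among the G proteins and phospholipases that receptors of this kind act through, Gna12 fell by 2.61 and Plcb4 by 1.24.

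The remaining renin-angiotensin list held 11 tested genes, 3 called higher, 2 lower and 6 neither (median 0.09). With equal sums 0 were higher and 6 lower (median -0.65). The count of higher genes was 1 without saline 1, saline 3, LPS 1 or LPS 2, each left out alone, and with quantile normalization, where 10 genes were tested. Enpep and Lnpep, aminopeptidases that trim angiotensin peptides, fell by 1.99 and 1.67. Atp6ap2, the prorenin receptor gene, rose by 0.57 (limma adjusted p = 0.0216), was 0.18 and not called with quantile normalization, turned to -0.22 with equal sums, and lost its call when saline 1, saline 3, LPS 1 or LPS 2 was left out. The renin gene Ren1 was listed at 0 in all 6 libraries, and Agt, the precursor of angiotensin, was at 0.22 to 1.40 in saline and 0.21 to 0.35 in LPS, too low to be tested.

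**Figure D4:**
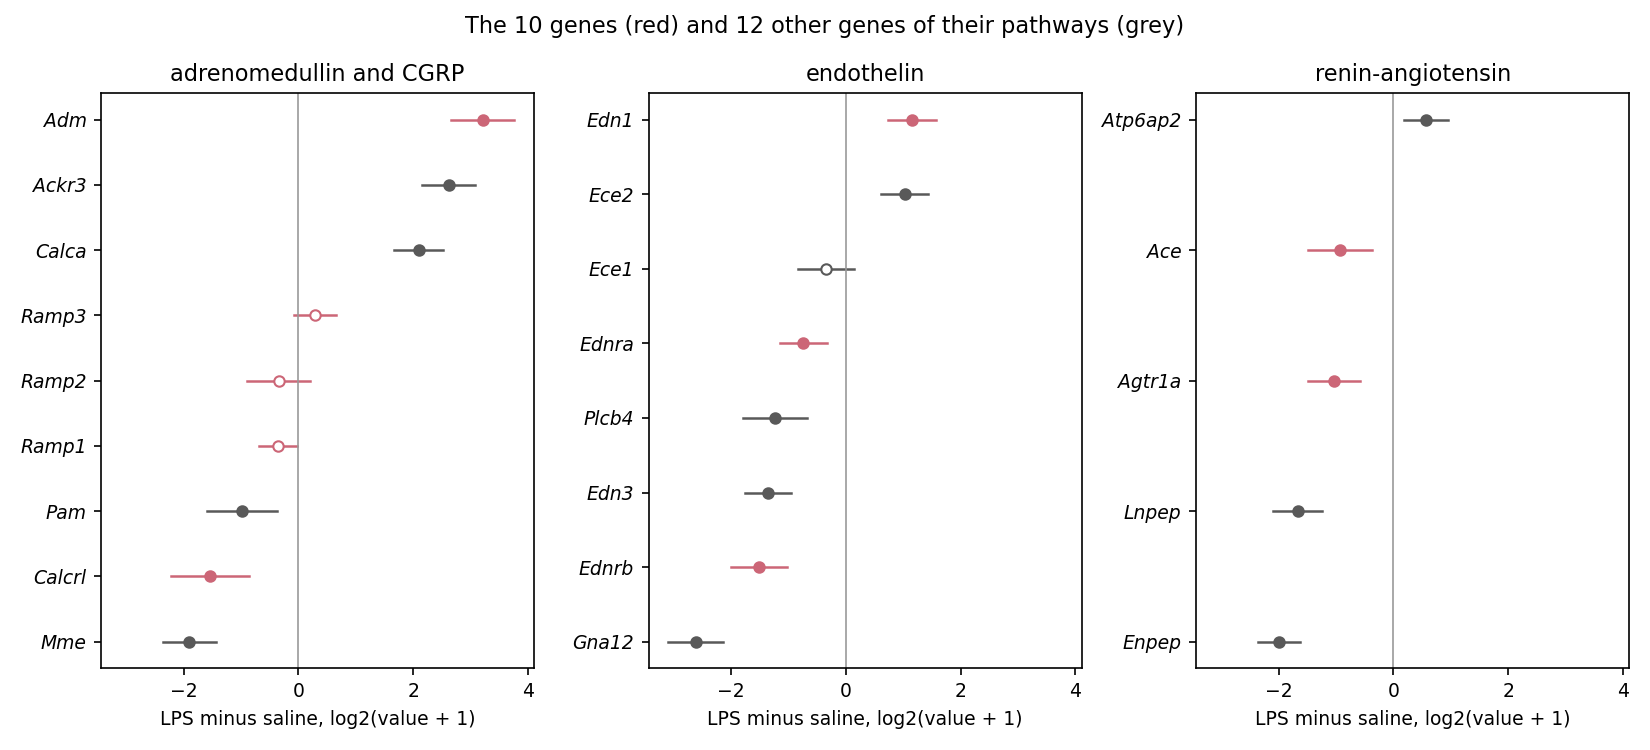
LPS minus saline on the log2(value + 1) scale with 95% intervals from limma for the 10 genes (red) and for 12 other genes of the 3 pathways that the text names (grey); filled circles have a limma adjusted p under 0.05. Adm and Edn1 lie at the top of their panels, and Gna12 (-2.61), Enpep (-1.99) and Mme (-1.90) at the bottom.

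The genes most like Adm, Edn1 and Ace were taken as those with the smallest root mean square distance over the 6 libraries, after subtracting each gene's saline mean, among 10294 tested genes with 6 values. For Adm these were Ptx3 (distance 0.25 on the log2 scale), the gene of the secreted pattern recognition protein pentraxin 3, Serpinb2 (0.29) and Gm13889 (0.34). For Edn1 they were Prdx6 (0.08), Scgb1a1 (0.09), the club cell secretoglobin gene, and Map3k6 (0.15). For Ace they were Cxxc5 (0.09), 2310022B05Rik (0.09) and Podxl (0.10), a sialomucin gene of vascular endothelium. The distances describe likeness in these 6 libraries, which share the same 2 groups.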

How the data were processed

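RNA sequencing tables of 6 mouse lung libraries were used, 3 per group, grouped by title. The submitters' processing notes name TopHat and the mm10 build; per the labels' protocols, a directional library kit was used. The values the authors deposited are read as log2 of an expression value plus 1; no source used here names the counting tool, annotation or scaling. Depth is unknown, so no counting interval is given. Pearson's r over 18699 genes (not independent of one another) was 0.985 to 0.994 within groups and 0.924 to 0.970 between groups. Saline tables hold 3869 exact zeros each and those of LPS 5117 to 6223. Values above 0 and under 0.01 number 1505 to 1936 in saline tables and 11 to 24 in those of LPS. Whether both groups were processed alike is not stated, and a difference in processing could not be told apart from treatment. The lowest value of the 10 genes is 1.45. The LPS 3 table ends early, without 4484 genes, none of them among the 10.

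Groups were compared with limma 3.58.1 (R 4.3.3, with variance trend and Benjamini-Hochberg adjustment), and within-library differences with exact permutation tests (scipy 1.17.1). Genes reaching a value of 1 before the log in 3 libraries were kept (13116, of which 2821 had 2 LPS values). A gene could thus be kept through the libraries of a single group, the group where it is higher. Named pathway genes were up to 4 called members of each list with the largest differences, plus Agt, Ece1, Adm2, Ackr3 and Pam; some genes under this rule, and 1 of the within-library differences, are not reported here. The members and lists were chosen with earlier results of these data known. Alternatives changed scaling, filter, pseudocount, variance model, block, libraries, threshold and genes tested; motif letters were settled with the sequences in view.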

Additional observations from a re-analysis of the deposited data

How the results depend on the processing

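Depth is unknown from these tables, and with 3 libraries a group the exact permutation tests cannot pass 0.05. Of 158 values of the 10 genes under alternatives, 149 kept direction and side of the threshold. Alternatives of filter, variance model, block, threshold and genes tested leave each difference as it was. Direction could not change in them, so this count overstates how far direction was probed. With equal sums, the number of members higher was 1 in place of 2, since the Edn1 call ended. Also with equal sums, 2 values changed sign: Ramp3, not called as deposited, was -0.34, and Atp6ap2, a gene outside the 10, was -0.22. A mean value of at least 5 left Ramp3 and Agtr1a untested, and 4 members were lower. Ace ended at a threshold of 0.01. Members lower numbered 4 to 5 and members higher 2 when 1 library was left out. Of the 6 within-library differences with overlapping groups, 4 changed sign under an alternative: Ramp2 minus Ramp1 was -0.0585 and Ace minus Agtr1a -0.14 with saline 1 and 3 against LPS 1 and 2. Leaving out 1 library gave -0.17 to 0.21 for Ramp2 minus Ramp1, -0.17 to 0.46 for Ace minus Agtr1a, -0.22 to 0.18 for Ramp2 against Pecam1 and Cdh5, and -0.0652 to 0.51 for Agtr1a against Pdgfrb and Notch3. Ace against Pecam1 and Cdh5 (-0.76 to -0.39) and Ednra against Pdgfrb and Notch3 (0.26 to 0.83) kept theirs. The cause was not tested. With the number in the titles as a replicate block, 2 members were higher and 5 lower, the same calls, and Adm stayed at 3.21 (limma adjusted p = 0.000499); 5417 genes were called against 6565. The numbers showed no sign of pairing the libraries: deviations from the group means correlated at -0.23, -0.08 and -0.25 for same-numbered libraries. Libraries of unlike number correlated at -0.01 to 0.22. With 3 libraries a group, centred on their own mean, such values cannot exclude a pairing. Over all genes, 798 were called higher and 8343 lower with equal sums, against 3377 and 3188 as deposited, and 2988 and 1752 with a mean value of at least 5. A threshold of 0.01 left 2033 and 2004. The alternatives for the named pathway genes were added after seeing the data.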

Other observations

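Receptors and ligands of other vasoactive peptides were lower in LPS more often than higher. Over all genes tested, 24.3% were lower and 25.7% higher. Of 8 tested genes of that list, 5 were called lower, 1 higher (2 without LPS 2) and 2 neither (median -1.02). In this list 12 of 20 members were too low to be tested. Of those called lower, Aplnr (0.44 to 0.95 in LPS) and Vipr2 (0.45 and 0.78 in LPS 1 and 2) were under the filter value in LPS. They were tested through saline alone, which favours a call of lower. Aplnr, the apelin receptor gene, fell by 2.60 (SE 0.18; limma adjusted p = 5.80e-05), Npr3, the clearance receptor for natriuretic peptides, by 2.14, and Vipr2, a receptor for vasoactive intestinal peptide with no value in LPS 3, by 1.90. Apln, the ligand of Aplnr, was at -0.02 (SE 0.20; limma adjusted p = 0.931). Bdkrb1, the bradykinin receptor induced in inflamed tissue, was the member that rose (1.33, SE 0.26; limma adjusted p = 0.00325), with 0.96, 2.16 and 1.73 in saline and 3.05, 2.86 and 2.92 in LPS.

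Targets of the hypoxia-inducible factors (HIF), a group to which Adm also belongs, rose in part. Of 13 tested, 9 were called higher, 2 lower and 2 neither (median 1.05, and 0.26 with equal sums, where 6 were higher and 4 lower). The shares over all genes tested were 25.7% higher and 24.3% lower as deposited. Ddit4 rose by 1.95, Pfkfb3 by 1.88, Slc2a1 by 1.69 and Hk2 by 1.52, while Pdk1 (-0.72) and P4ha1 (-0.70) fell and Vegfa was at -0.14 (limma adjusted p = 0.640). The ACGTG core was not in the 250 bases before the Adm start. It was present in 16.6% of all stretches of this length, and sequence outside the window was not searched. The part of HIF in these values was not tested.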
